A study of Apis mellifera with 6 samples.

Results

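Named ribosomal protein genes of the honey bee are described here across the 3 adult phenotypes. Ribosomal proteins are the protein components of the ribosome, which has a small and a large subunit built on ribosomal RNA and which makes all proteins of the cell. Genes for them are among the most strongly transcribed genes of most animal cells, and their products are needed in matched amounts. In Drosophila, loss of 1 copy of many of these genes slows growth and development. Genes were chosen by their symbol in the RefSeq annotation of Amel_HAv3.1, which had to be RpL or RpS followed by a digit. The 5 genes described are among the 12289 genes that were paired with a transcript. Most genes of that annotation carry a locus number in place of a name, so the 5 do not stand for the whole family. The small subunit gene is Rps14, and the large subunit genes are RpL32, RpL35, Rpl39 and Rpl41.

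Polyadenylated RNA of Apis mellifera central brains was sequenced in newly-eclosed drones, queens and workers, collected no later than 1 hour after eclosure. Drones are haploid males, and queens and workers are diploid females. All bees came from 1 mother queen, so the libraries stand for a single family. Each library was a pool of 5 brains from which the optic lobes had been removed, and there were 2 pools of each phenotype, which gives 6 libraries. The libraries held between 7126960 and 40197985 estimated counts on transcripts paired with a gene, with worker replicate 2 the shallowest. In pooled brain tissue, more cells of a type that reads a gene strongly and more RNA of that gene per cell cannot be told apart.

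The 5 genes fell into 2 classes that differed by orders of magnitude, and these classes followed the strand of the gene. Rps14, RpL35 and Rpl41 lie on the plus strand, and their total over the 6 libraries was 36149, 38339 and 30319 counts. RpL32 and Rpl39 lie on the minus strand, and their totals were 10 and 127 counts. RpL32, also known as Rp49, is a reference gene in many expression studies of insects because it is read in most tissues. The same split was seen over the genome. The median protein-coding gene had a total of 7342 counts on the plus strand (4981 genes) and 102 counts on the minus strand (4898 genes). Minus-strand genes held between 2.94% and 4.51% of the paired counts of a library. Over the 16 chromosomes the median of the plus-strand genes ran between 4632 and 9520 counts, and that of the minus-strand genes between 75 and 126.1 counts. The cause of this split was not tested.

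**Figure D1:**
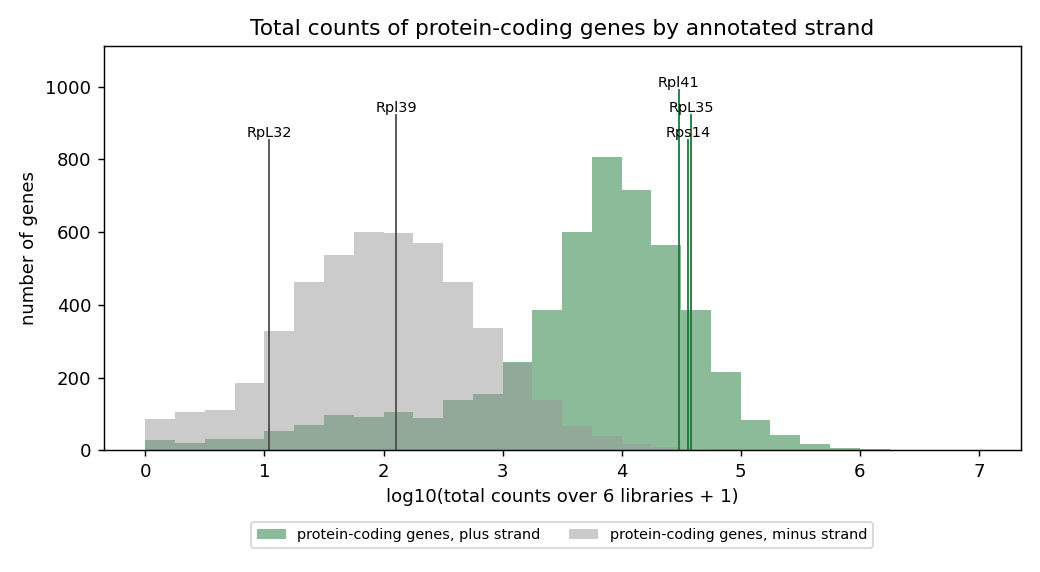
Number of protein-coding genes (y axis) by log10 of their total estimated counts over the 6 libraries plus 1 (x axis), for genes on the plus strand (green) and on the minus strand (grey), with vertical lines at the 5 ribosomal protein genes. Rps14, RpL35 and Rpl41 stand at 30319 to 38339 counts within the plus-strand distribution, and RpL32 and Rpl39 at 10 and 127 counts within that of the minus strand.

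A second measurement bears on the minus-strand values. Exons of Rpl39 (minus strand) and LOC413121 (plus strand) overlap by 174 nucleotides of the genome. The estimated counts of Rpl39 were fractions, but with those of the 2 LOC413121 transcripts they added up to a whole number in all 6 libraries, within 0.0023. Reads had therefore been divided between targets annotated on opposite strands, although the quantification was set to use the strand of the reads. Of these joint counts, LOC413121 took between 96.6% and 99.3%. The low values of RpL32 and Rpl39 are given below as deposited and are not read as the level of their messenger RNA.

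Rps14 encodes a protein of the small subunit (gene 725168, chromosome 4, 5135231 to 5136489). It has 2 annotated transcripts of 4 exons each, and both were among the targets. Its level was 323 and 290 CPM (the count scaled to library size by the TMM method) in drones, 247 and 218 CPM in queens, and 375 and 432 CPM in workers. No library of 1 phenotype overlapped with those of another, and workers were highest and queens lowest. On TPM, which also divides by transcript length, it had 1059 and 993 in drones, 1019 and 973 in queens, and 1442 and 1523 in workers. Workers were again highest, but drones and queens overlapped.

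RpL35 encodes a large subunit protein at the exit of the tunnel through which new proteins leave the ribosome (gene 724191, chromosome 8, 2140482 to 2142333, 1 transcript of 884 nucleotides). It had 354 and 333 CPM in drones, 274 and 235 CPM in queens, and 349 and 375 CPM in workers. Both queen libraries lay below all other libraries, while drones and workers overlapped. Its TPM was 649 and 618 in drones, 641 and 579 in queens, and 754 and 765 in workers, so that drones and queens overlapped on this scale. Exons of RpL35 overlap by 212 nucleotides with those of CTL5 on the minus strand, and CTL5 held between 2.04% and 3.39% of the counts of both genes. Their summed counts missed a whole number by up to 0.34, unlike those of Rpl39 and LOC413121.

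Rpl41 encodes the smallest protein of the large subunit (gene 100191002, chromosome 11, 12183567 to 12184247). Its single transcript is 320 nucleotides long in 3 exons. It had 308 and 241 CPM in drones, 205 and 158 CPM in queens, and 286 and 309 CPM in workers. Queens were again below all other libraries, and the drone libraries stood on either side of worker replicate 1. On TPM it had 2607 and 2300 in drones, 2128 and 1805 in queens, and 2743 and 2517 in workers.

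The minus-strand genes were read from few counts. Rpl39, whose protein lines the exit tunnel of the large subunit (gene 724966, chromosome 16, 4644650 to 4645332), had 36.8 and 14.9 estimated counts in drones, 34.2 and 24.4 in queens, and 14.7 and 2.4 in workers. RpL32 (gene 406099, chromosome 11, 10035231 to 10036482) had 4 and 2 counts in drones, 0 and 3 in queens, and 1 and 0 in workers, and was the only one of the 5 that did not pass the filter on low counts. No fold change is given for RpL32, since it did not pass this filter. Levels below 3 counts are taken as not readable, which holds for Rpl39 in worker replicate 2. The fold changes of Rpl39 against workers rest in part on that library. A level of 3 counts corresponded to between 0.0738 and 0.422 CPM.

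**Figure D2:**
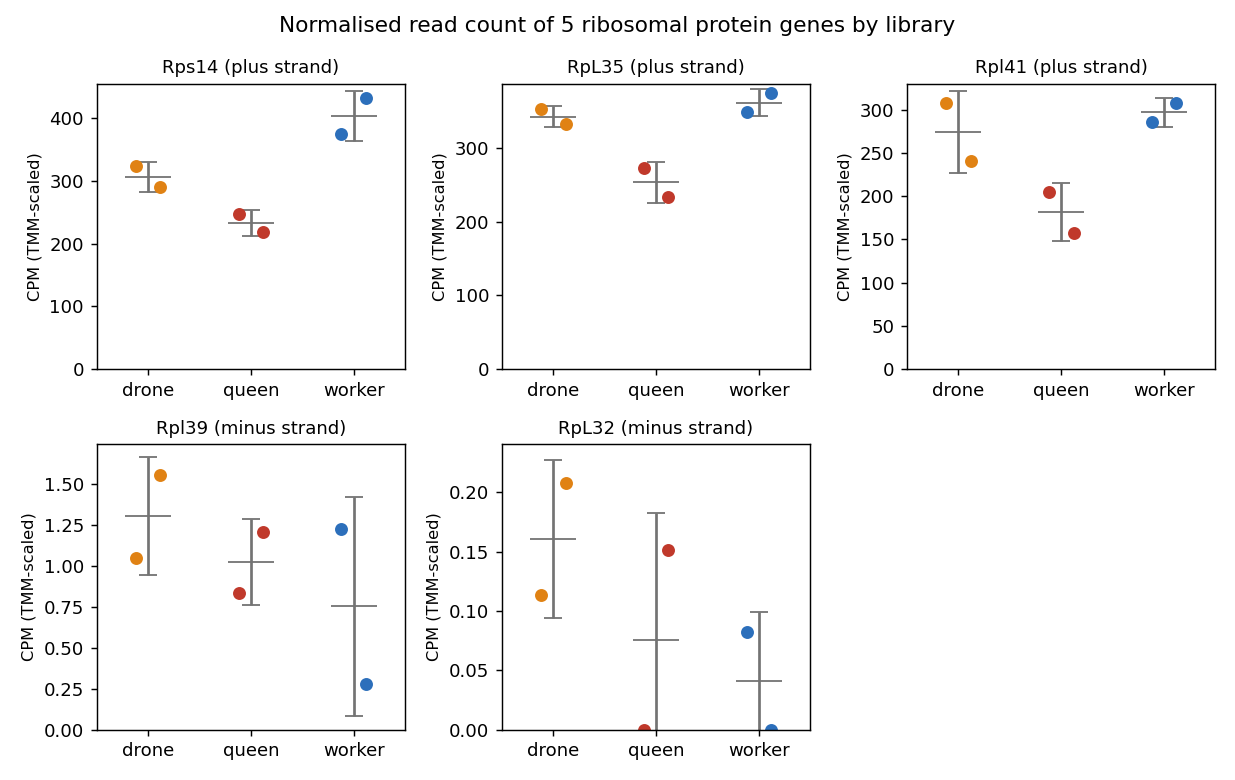
Normalised read count in CPM (y axis, each panel on its own scale starting at 0) of the 5 ribosomal protein genes in drone, queen and worker libraries, with 1 point per library, a horizontal line at the mean of 2 libraries and bars of 1 SD, cut at 0. For Rps14, RpL35 and Rpl41 the queen libraries are the lowest 2 of 6, while no library of the minus-strand genes is above 1.56 CPM.

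Per length, the 3 plus-strand genes were among the most abundant messages of the brain. Over the 6 libraries their mean level was 2350 TPM for Rpl41, 1168 TPM for Rps14 and 667 TPM for RpL35, where the median plus-strand protein-coding gene had 46.6 TPM. Among 4981 plus-strand protein-coding genes this placed Rpl41 25th, Rps14 83rd and RpL35 148th. The order Rpl41, Rps14, RpL35 was the same in all 6 libraries. By library, Rpl41 ranked between 22nd and 38th, Rps14 between 59th and 100th, and RpL35 between 132nd and 197th. Queen replicate 2 gave the lowest rank of each gene. The replicates of these genes differed by 0.086 to 0.378 on the log2 scale. The median plus-strand gene tested differed by 0.132 in drones, 0.089 in queens and 0.143 in workers. In queens the difference was 0.183 for Rps14, 0.222 for RpL35 and 0.378 for Rpl41, each time with replicate 2 the lower in CPM.

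The first comparison asks how the female castes, which arise from the same genome by diet, differ at adult emergence. All 3 plus-strand genes fell in queens relative to workers, to 0.577 of the worker level for Rps14, 0.613 for Rpl41 and 0.703 for RpL35. Rps14 averaged 232 ± 20.8 CPM in queens and 403 ± 40.1 CPM in workers (SD, n = 2 pools each), and its log2 fold change was -0.79 (standard error 0.10, FDR 0.000264). Rpl41 averaged 182 ± 33.6 CPM in queens and 297 ± 16.3 CPM in workers, with a log2 fold change of -0.71 and a standard error of 0.14 (FDR 0.00486). RpL35 averaged 254 ± 27.6 CPM in queens and 362 ± 18.3 CPM in workers, a change of -0.51 on the log2 scale (standard error 0.09, FDR 0.00232). Each FDR comes from the quasi-likelihood test of edgeR, adjusted by the Benjamini-Hochberg method for the 9688 genes tested. Every queen library lay below every worker library for each of the 3 genes. Of all genes tested, 10.4% were called lower in queens than in workers and 11.9% higher. Of the 5515 plus-strand genes tested, 15.0% were called lower and 15.3% higher. The call for Rpl41 was lost without queen replicate 2 (log2 fold change -0.54, FDR 0.0654), whereas those for Rps14 and RpL35 were made with each library left out in turn. With the most abundant transcript of each gene counted alone, Rpl41 was not called either (-0.72, FDR 0.0604). Rpl41 has 1 transcript, so this setting changed the counts of other genes and not its own.

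Rpl39 was not called between queens and workers, with a log2 fold change of 0.30 and a standard error of 0.64 (FDR 0.784). That value was -0.28 without worker replicate 2 and 1.81 without worker replicate 1. Over the 4 ribosomal protein genes tested the median log2 fold change was -0.61, beside a median of 0.03 over all genes tested. Over the 3 on the plus strand it was -0.71, beside -0.04 over plus-strand genes. A joint test of caste called the 3 plus-strand genes and not Rpl39, with an FDR of 0.000366 for Rps14, 0.0023 for RpL35 and 0.00522 for Rpl41. It called 38.9% of all genes tested and 52.5% of those on the plus strand.

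Worker libraries stood apart in the listed markers of the hypopharyngeal gland, of photoreceptors, and of haemocytes and immunity. The study removed the hypopharyngeal glands, which in workers make the royal jelly proteins. Of a list of 12 marker genes of this gland, 11 were in the gene table, all on the plus strand, and none was at 0 counts throughout. Their summed level was 65.7 to 71.2 CPM in drones, 74.4 to 81.6 CPM in queens, and 21400 to 22600 CPM in workers. Of 9 photoreceptor markers, the 2 readable ones, Lop1 and Blop, summed to 2340 to 2590 CPM in drones, 562 to 583 CPM in queens, and 4790 to 4800 CPM in workers. Of 6 listed haemocyte and immune genes, 3 were in the gene table, and their sum was 59.2 to 62.7 CPM in drones, 80.1 to 84.4 CPM in queens, and 2430 to 2540 CPM in workers. Both worker libraries lay above the other 4 in each of these sums. Of 12 neuronal markers, 5 were in the gene table, and the 2 on the plus strand were brp and Amih. They summed to 938 to 1040 CPM in drones, 1940 to 2030 CPM in queens, and 1220 to 1440 CPM in workers. The muscle marker TpnT, the readable one of 2 found in the gene table, had 34.2 to 43.3 CPM in drones, 577 to 675 CPM in queens, and 88.5 to 123 CPM in workers. Of 6 fat body markers, all in the gene table, only Tsf1 lies on the plus strand. Tsf1 had 2440 to 2620 CPM in drones, 1480 to 1550 CPM in queens, and 1630 to 1850 CPM in workers. No glial marker was in the gene table. The part of these cell types in the differences of the ribosomal protein genes was not tested.

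In the second comparison, of males with workers, 1 of the 3 plus-strand genes was called, and the differences between the genes were not tested. Rps14 fell in drones, at 306 ± 23.5 CPM against 403 ± 40.1 CPM in workers (SD, n = 2 pools each). This was -0.39 on the log2 scale (standard error 0.10, edgeR FDR 0.0127). RpL35 was at 343 ± 14.5 CPM in drones and 362 ± 18.3 CPM in workers, with a log2 fold change of -0.08 and a standard error of 0.09 (FDR 0.566). Rpl41 was at 275 ± 47.2 CPM in drones and 297 ± 16.3 CPM in workers, with a log2 fold change of -0.11 and a standard error of 0.14 (FDR 0.607). Lower calls in drones were made for 15.2% of all genes tested and for 21.9% of those on the plus strand, and higher calls for 13.4% and 17.6%. A single call among 3 plus-strand genes is near that background. The median over the 4 genes tested was -0.09, beside 0.01 over all genes. It was -0.21 without drone replicate 1, -0.038 without worker replicate 2 and 0.013 without drone replicate 2. Over the 3 on the plus strand the median was -0.11, beside -0.05 over plus-strand genes. The Rps14 call was lost without worker replicate 2 (log2 fold change -0.29, FDR 0.0937) and without drone replicate 2 (log2 fold change -0.32, FDR 0.0609).

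Rpl39 differed by 0.62 on the log2 scale between drones and workers and was not called (standard error 0.65, FDR 0.518). Without worker replicate 2, at 2.4 counts, this value was 0.041 (FDR 0.968), and without worker replicate 1 it was 2.18 (FDR 0.132).

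The third comparison sets the reproductive phenotypes against each other. On the count scale all 3 plus-strand genes were higher in drones than in queens, by 1.32 to 1.52 times. The log2 fold change was 0.60 for Rpl41 (standard error 0.14, FDR 0.00757), 0.43 for RpL35 (standard error 0.09, FDR 0.00363) and 0.40 for Rps14 (standard error 0.10, FDR 0.00985), all from edgeR. Both drone libraries lay above both queen libraries for each gene. Higher calls in drones were made for 13.8% of all genes tested and for 19.7% of those on the plus strand, and lower calls for 16.9% and 22.6%. The median over the 4 genes tested was 0.42, beside 0.00 over all genes. Over the 3 on the plus strand it was 0.43, beside -0.004 over plus-strand genes. Rpl39 was not called (log2 fold change 0.32, standard error 0.59, FDR 0.747). Without drone replicate 1 the calls for Rps14 (0.31, FDR 0.0812) and Rpl41 (0.40, FDR 0.0668) were lost, and without queen replicate 2 they were lost as well (0.33 and 0.45, both with an FDR of 0.0816). With the most abundant transcript alone the Rpl41 call was lost too (0.63, FDR 0.0636), although the counts of Rpl41 itself were the same in that setting. The queen libraries enter this comparison and the first one, and the worker libraries enter the first and the second, so the 3 comparisons are not independent.

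**Figure D3:**
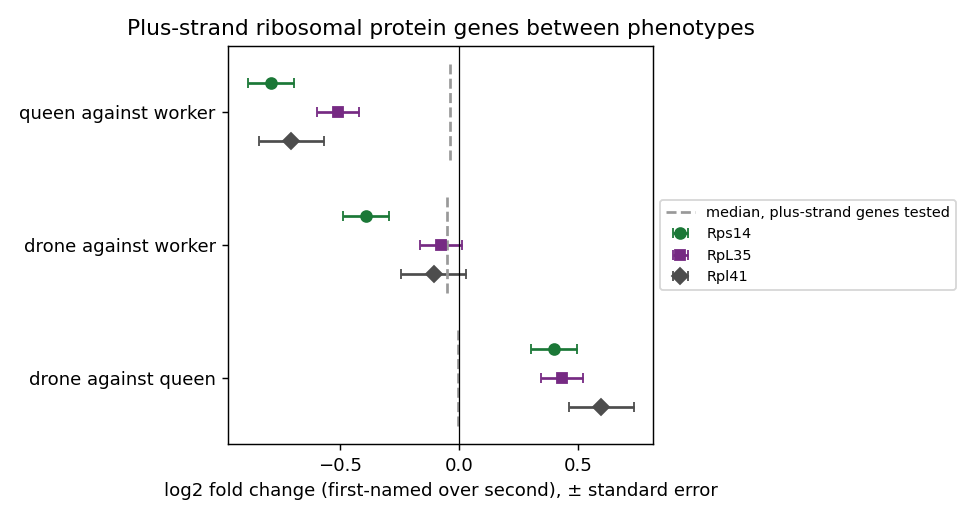
Log2 fold change (x axis, first-named phenotype over the second) with its standard error for Rps14, RpL35 and Rpl41 in each of the 3 comparisons (y axis), with the median over 5515 plus-strand genes tested as a dashed line. All 3 genes lie at -0.51 or lower for queen against worker and at 0.40 or higher for drone against queen, while for drone against worker Rps14 stands at -0.39 and the other two lie within 0.11 of 0.

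The difference between drones and queens depended on the scale. On log2(TPM + 1) it was 0.04 for Rps14, 0.06 for RpL35 and 0.32 for Rpl41, and none of the 3 was called by limma (FDR 0.63, 0.542 and 0.0524). The median over the 9688 genes tested moved too on that scale, to -0.28 for drones relative to queens. This median takes in minus-strand genes with few counts, and it was -0.41 on log2(TPM + 0.1). Values relative to it therefore depend on that choice. Relative to the median of -0.28 the differences were 0.32 for Rps14, 0.34 for RpL35 and 0.60 for Rpl41. A single gene, the cuticular protein gene CPF2, held 19.5% and 20.4% of all TPM in drones, 0.737% and 0.759% in queens, and 4.30% and 4.23% in workers, and its part in this shift was not tested. For queens relative to workers, TPM gave -0.57 for Rps14, -0.32 for RpL35 and -0.42 for Rpl41, which was -0.72, -0.46 and -0.57 relative to a median of 0.14. For drones relative to workers, TPM gave -0.53, -0.26 and -0.10 for the same genes, or -0.39, -0.12 and 0.04 relative to a median of -0.14. On log2(TPM + 1) without the median taken off, RpL35 was called lower in drones by limma (-0.26, FDR 0.0219).

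**Figure D4:**
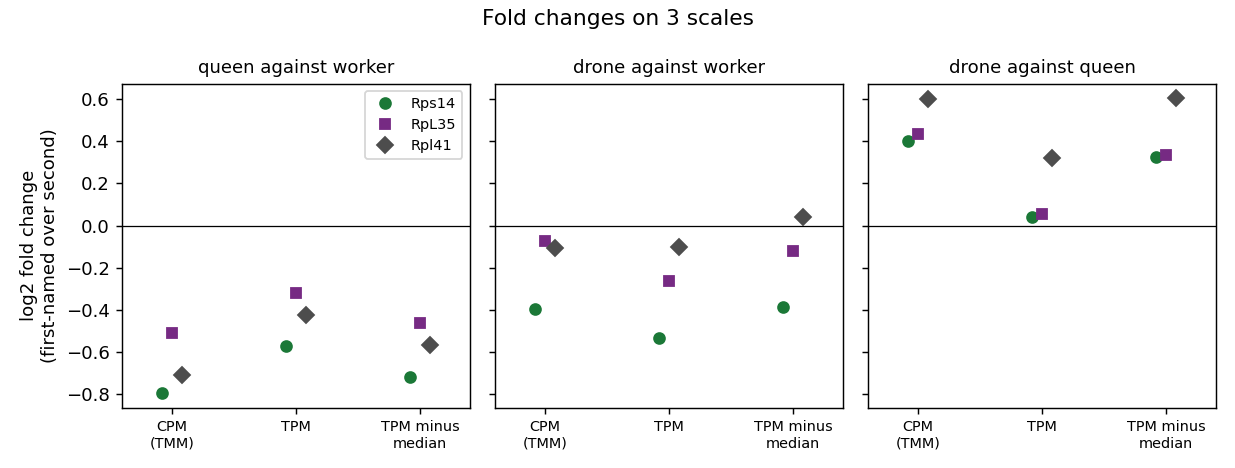
Log2 fold change (y axis, first-named phenotype over the second) of Rps14, RpL35 and Rpl41 on CPM with TMM scaling, on log2(TPM + 1), and on log2(TPM + 1) minus the median over all genes tested (x axis), with 1 panel per comparison. For drone against queen the TPM values of Rps14 and RpL35 lie at 0.04 and 0.06, and at 0.32 and 0.34 relative to the median of -0.28.

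As a set, the 5 genes held 986 and 866 CPM in drones, 727 and 611 CPM in queens, and 1011 and 1116 CPM in workers. The mean was 926 ± 84.7 CPM in drones, 669 ± 81.6 CPM in queens and 1063 ± 74.0 CPM in workers (SD, n = 2 pools). On TPM the sums were 4119 ± 284 in drones, 3578 ± 303 in queens and 4876 ± 98.2 in workers. Between 99.77% and 99.97% of the set's counts in a library came from the 3 plus-strand genes, so that the sums describe these genes alone.

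The ratios between the plus-strand genes varied among the libraries. Rps14 over RpL35, on TPM, was 1.62 ± 0.0178 in drones, 1.64 ± 0.0644 in queens and 1.95 ± 0.0555 in workers (SD, n = 2 pools), and both worker libraries, at 1.91 and 1.99, lay above the other 4. Rpl41 over Rps14 was 2.39 ± 0.102 in drones, 1.97 ± 0.165 in queens and 1.78 ± 0.177 in workers, where queens and workers overlapped. Rpl41 over RpL35 was 3.87 ± 0.208 in drones, 3.22 ± 0.143 in queens and 3.46 ± 0.246 in workers. On CPM this last ratio was 0.798 ± 0.104 in drones, 0.712 ± 0.0546 in queens and 0.821 ± 0.00368 in workers. The order of the drone and worker means thus turned with the scale. On CPM the drone libraries, at 0.872 and 0.725, stood on either side of the worker libraries. These ratios were not tested.

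Short messages are sensitive to the length of the sequenced fragments, through the effective length by which TPM divides. The effective length of Rpl41 was 153 and 133 nucleotides in drones, 163 and 149 nucleotides in queens, and 162 and 187 nucleotides in workers. When a trend of counts with transcript length was taken out of each library, the differences between queens and workers in all 3 genes were still called. Between drones and queens the calls for Rps14 (log2 fold change 0.29, edgeR FDR 0.132) and RpL35 (0.34, FDR 0.0785) were then lost, and that for Rpl41 was still made.

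Rps14 was the one well-read gene with more than 1 transcript. Its shorter transcript (562 nucleotides, from 5135259) took 80.4 ± 3.82% of the gene's counts in drones, 76.3 ± 0.354% in queens and 85.6 ± 0.141% in workers (SD, n = 2 pools). The longer one (613 nucleotides) starts 5′ of it at 5135231, and took 19.6 ± 3.82% in drones, 23.6 ± 0.354% in queens and 14.4 ± 0.141% in workers. Worker libraries were the highest in the share of the shorter transcript. These shares rest on how Kallisto divided reads over overlapping transcripts, and were not tested.

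Few other genes of the translation machinery carry a name. Initiation factors bring the messenger RNA to the ribosome, and Eif3h and Eif4g, both on the plus strand, were not called between queens and workers, with log2 fold changes of -0.20 (standard error 0.07, FDR 0.0822) and 0.14 (standard error 0.08, FDR 0.262). Ef-1a-f1, an elongation factor that delivers transfer RNA, had 1821 and 1780 CPM in drones, 1483 and 1429 CPM in queens, and 1545 and 1763 CPM in workers. It was called between drones and queens (log2 fold change 0.31, edgeR FDR 0.0191) and not between queens and workers (-0.18, FDR 0.151). Eif3h was called between drones and queens as well (0.21, FDR 0.0498). On TPM the order of drones and queens turned for both genes, at 1337 in drones and 1416 in queens for Ef-1a-f1, and at 134 in drones and 152 in queens for Eif3h. These TPM values were not set against the median over all genes, which was -0.28 on log2(TPM + 1) for drones relative to queens. Eif3h, Eif4g and Ef-1a-f1 were not called between drones and workers. The ribosomal stalk gene RpLP1 and the second elongation factor EF1a-F2 lie on the minus strand and had at most 80 and 384 counts in a library. RpLP1 was not called in any comparison. EF1a-F2 was called higher in queens (2.48, FDR 0.0297) and in drones (3.13, FDR 0.0072) than in workers, where it had 5 to 11 counts. As for the other minus-strand genes, these values are not read as the level of the messenger RNA. InR-2, an insulin receptor gene, rose in queens relative to workers by 1.09 on the log2 scale (standard error 0.11, FDR 5.96e-05), with 53.1 and 51.8 CPM in drones, 67.8 and 64.7 CPM in queens, and 29.0 and 33.6 CPM in workers. It was also called between drones and workers (0.75, FDR 0.000508) and between drones and queens (-0.34, FDR 0.0291). Names for mitochondrial ribosomal proteins and ribosome biogenesis genes were not found in the gene table, and these lists have no value here.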

How the data were processed

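The authors assigned reads to EnsemblMetazoa transcripts of Amel_HAv3.1 with Kallisto, set to use read strand (version not given in the sources used here), and deposited estimated counts and TPM for 28409 targets in each library, as well as exon coordinates of 28381 targets. Coordinates paired 28232 targets with 12289 genes of the RefSeq table of that assembly, and the 177 others, with 7.26% to 10.42% of the counts, were left out. For each of the 5 genes the number of targets equalled that of RefSeq transcripts. Summing over a gene's targets and rounding gave the counts per gene, and 9688 genes that reached 5 counts in 3 or more libraries were kept. edgeR 4.0.16 in R 4.3.3 (TMM, quasi-likelihood, caste as the only factor over 6 libraries, FDR below 0.05) gave all FDR values unless limma 3.58.1 or DESeq2 1.42.0 is named, and standard errors were derived from its F statistic. With 2 libraries against 2 an exact permutation test cannot give a two-sided p below 0.333. The pools came from 1 family, and p-values measure the spread between these pools. That spread was estimated with information shared over all genes tested. Standard errors and p-values therefore do not rest on a gene's own spread alone. Tested on simulated data with 200 genes changed 4-fold in queens, the queen against worker fit recovered 77.4% of them, and 6.51% of its calls were false. The planted changes were larger than those of the ribosomal protein genes and fewer than the genes called here. These rates therefore do not carry over to the ribosomal protein genes. The rule for named genes (calls, highest and lowest TPM, low counts, replicate spread, transcript shares) took all 5, and one item is not reported here. The genes, lists and tests were chosen with earlier results of these data known. No sequences were at hand. Alternatives covered scaling, model, filter, unit, transcript, length, depth, libraries left out and a replicate block. A fit on plus-strand genes alone was added after the data were seen.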

Additional observations from a re-analysis of the deposited data

How the results depend on the processing

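Between queens and workers, the number of ribosomal protein genes called stayed at 2 or 3 in all settings, always as lower in queens, including 3 with the replicate block, 3 with DESeq2 and 3 with plus-strand genes only, a setting chosen after seeing the data. Deviations of libraries with the same replicate number were not positively correlated. The correlation was -0.019 between queens and workers, -0.179 between drones and workers and -0.367 between drones and queens. The replicate block changed no call of these genes, with 3, 1 and 3 calls in the 3 comparisons. Over all genes it gave 1681 calls between queens and workers, 2269 between drones and workers and 2457 between drones and queens, against 2155, 2768 and 2977 without it. The most abundant transcript alone gave 1153, 1750 and 1874, and without 1 of the libraries compared the lowest numbers were 1275, 1898 and 1986. Between drones and workers, 2 genes were called in place of 1 with limma on log2(TPM + 1) and log2(TPM + 0.1), where RpL35 was added. Leaving out 1 library gave between 0 and 1. Where a phenotype kept 1 library, it was assumed to vary like the others. Between drones and queens, 3 calls became 1 with transcript length offsets, 0 with limma on log2(TPM + 1) and 1 on log2(TPM + 0.1), 2 with the most abundant transcript alone, and between 1 and 3 with 1 library left out, the cause not being tested. Rpl41, the gene not called with the most abundant transcript alone, has 1 transcript, so its own counts did not change there. Directions that changed were those of genes not called. Rpl41 between drones and workers was 0.043 with length offsets and lay between -0.30 and 0.056 with 1 library left out. Rpl39 ranged from -0.28 to 1.81 between queens and workers and from 0.041 to 2.18 between drones and workers with 1 library left out, and between drones and queens was -0.024 with log2(TPM + 1) and -0.027 with log2(TPM + 0.1). The median over the 4 genes tested between drones and queens was 0.0488 with log2(TPM + 1) and 0.0489 with log2(TPM + 0.1). The sum without the 5 most abundant genes was not run, since it leaves none. With TPM rescaled to paired targets, the sum was 4689 in drones, 4400 in queens and 5780 in workers. With 1 library left out, sums lay between 866 and 986 CPM in drones, 611 and 727 CPM in queens, and 1011 and 1116 CPM in workers. Library totals in place of TMM moved the median of all genes in drones by -0.12 relative to both females, and changed no call of these genes. RpL32 and Rpl39 had at most 37 counts in a library, which limits their precision.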
